A study of Mus musculus with 8 samples.

Results

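Gene expression in mouse skin fibroblasts was compared between cells named KO and wild-type cells after both had been kept in hypoxia. The KO libraries come from immortalised fibroblasts of mice labelled mir210lox/lox, and the WT libraries from immortalised fibroblasts of C57BL/6 mice. Both were held at 1% oxygen for 24 hours, with 2 libraries in each group, and the same genotypes at 21% oxygen (normoxia, 2 libraries each) give the values beside them. Sequence between lox sites is lost only where Cre recombinase has acted, and the labels mention neither Cre nor how many clones or animals were used, so KO is used here as a group name. The features described are the 12107 of 17091 with normalised read counts of 10 or more in 2 or more of the 8 libraries, and the other 4984 were not tested. Values printed are normalised read counts from the authors' table, replicate 1 before replicate 2, and all differences are KO minus WT on the log2(value + 1) scale with their standard error (SE), which understates changes of low genes. Whether both libraries of a group represent separate cultures is not stated, so p-values measure only how these libraries vary, and that variation may be technical.

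MicroRNAs are short RNAs that guide Argonaute proteins to messenger RNAs and lower their stability or translation, mostly through pairing of the seed, the bases near the 5′ end of the microRNA, with a site in the 3′ untranslated region. The gene of miR-210 is a target of HIF, the transcription factor that accumulates when oxygen is scarce, and miR-210 is among the microRNAs most regularly induced by hypoxia. Its best known targets include the iron-sulfur cluster scaffold Iscu, subunits and assembly factors of the respiratory chain, and regulators of growth and vessel formation. In cells that lack a microRNA its targets can be higher than in cells that have it, and a comparison made in hypoxia is one in which miR-210 would be present in the WT cells.

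The sequences below show what pairing was looked for. The mature RNAs are printed with their seed, bases 2 to 8, in capitals, and the hairpin with both mature arms in capitals (RefSeq, GRCm38.p6). The Mir210 hairpin is an annotated microRNA gene of 110 bases on the minus strand at chr7:141221384-141221493, with miR-210-3p at chr7:141221407-141221428.
miR-210-3p: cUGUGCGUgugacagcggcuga
miR-210-5p: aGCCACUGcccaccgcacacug
Mir210 hairpin: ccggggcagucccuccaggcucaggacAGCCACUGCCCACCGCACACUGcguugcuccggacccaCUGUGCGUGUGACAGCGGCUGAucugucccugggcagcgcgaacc

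Of the reported miR-210 targets that were tested, 9 hold a match to the miR-210-3p seed. The matches lie in the annotated 3′ untranslated region of the mouse transcript (GENCODE M21, GRCm38), and 5 are printed as examples. Acvr1b, Bdnf and Cpeb2, also named below, hold a match too and are not printed. Capitals mark the letters searched, ACGCACA (pairing with bases 2 to 8) or CGCACAA (pairing with bases 2 to 7, followed by an A), on the transcript strand only. A match is a description and does not show binding.
Ndufa4: tcagaagccatcCGCACAAttttccactt
Ncam1: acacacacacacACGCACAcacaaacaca
Gpd1l: ctacagacacacACGCACAtgagtgaatg
Sin3a: cttctctctcacACGCACAcatgcacaca
Fgfrl1: ccagattcacacACGCACAtgtttaaacg

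Mir210 itself was listed at 1, the floor of the table, in each of the 8 libraries, including both of WT hypoxia. Its value therefore does not check the labels, and the loss of mature miR-210 cannot be read from this table. Of the 11 fibroblast markers, all of which were tested, 5 were higher and 6 lower in KO hypoxia (median -0.32, 0.00 with the length trend removed). They included the abundant Col1a2 (7932 and 8334 in WT hypoxia, 9261 and 9048 in KO hypoxia) and Vim, the intermediate filament vimentin (27916 and 31829, 22681 and 25169).

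The 4 hypoxia libraries held an estimated 6.27 to 10.73 M reads assigned to genes, by the spacing of their low values. The replicates of WT differed more than those of KO: 1022 features (8.4%) were at least 2-fold apart between the 2 WT hypoxia libraries and 391 (3.2%) between the 2 KO hypoxia libraries. WT hypoxia replicate 2 stood apart, with a Pearson r of 0.954 with each KO hypoxia library across features and of 0.964 with its own replicate, against 0.985 between the KO pair. WT hypoxia replicate 1 was closer to the KO hypoxia libraries (r 0.978 and 0.977) than to its own replicate. Level also varied with transcript length, taken from the longest annotated transcript of each gene. The change per doubling of length was -0.091 and -0.141 in the WT hypoxia libraries and -0.024 and 0.134 in the KO hypoxia libraries. The shortest 10% of features (59 to 1353 bases) had a median KO minus WT difference of -0.33 in hypoxia and the longest 10% (from 6861 bases) one of 0.38. In normoxia the same features were at 0.16 and -0.15. The part of length in the results below was not tested, and list medians are also given with every library's length trend removed. Libraries differed too in their share of small RNA genes, at 6.51% and 6.15% of the total in WT hypoxia and 11.33% and 3.52% in KO hypoxia.

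**Figure D1:**
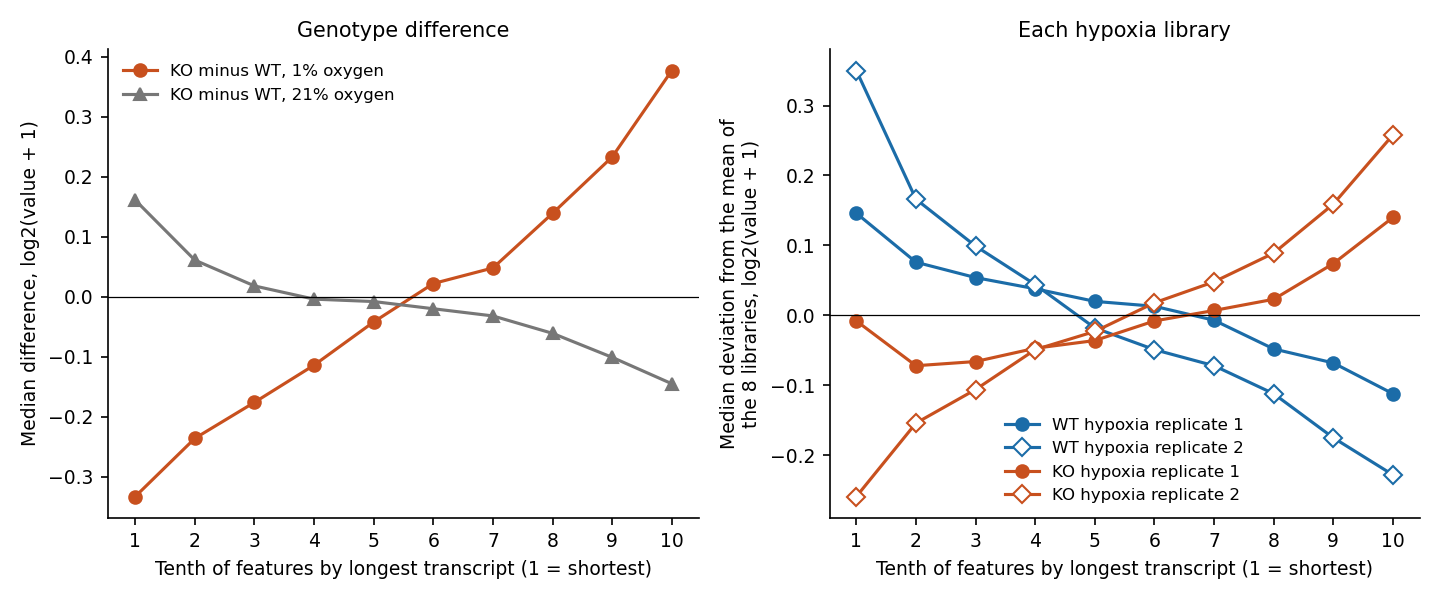
Left, the median KO minus WT difference (log2 scale, y axis) for 10 equal groups of features by longest transcript (x axis, 1 = shortest), at 1% and 21% oxygen; right, the median deviation of each hypoxia library from the mean of the 8 libraries. In hypoxia the difference runs from -0.33 in the shortest group to 0.38 in the longest, and in normoxia from 0.16 to -0.15; WT hypoxia replicate 2 and KO hypoxia replicate 2 slope most, in opposite directions.

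No gene passed the test in the hypoxia comparison. With limma's moderated test on all 8 libraries and Benjamini-Hochberg adjustment over the 12107 features, 0 were called (0%), the smallest adjusted p was 0.29, and 910 features (7.52%) had an unadjusted p under 0.05 where 605 would by chance. Of these 539 (4.45%) were higher and 371 (3.06%) lower in KO. The median SE of a difference was 0.29, and an exact permutation of 2 against 2 libraries reaches no p smaller than 1 in 3. The count of 910 depended on single libraries: it was 288 without WT hypoxia replicate 2, 323 without KO hypoxia replicate 1, 304 without KO hypoxia replicate 2 and 1537 without WT hypoxia replicate 1. Without KO normoxia replicate 1 or 2, which enter only the estimate of the spread, it was 1958 and 1966. In 6147 features (50.8%) both KO hypoxia libraries lay on one side of both WT hypoxia libraries, with KO higher in 3176 (26.2%) and lower in 2971 (24.5%). The corresponding number in normoxia was 2546 (21%), with 363 features at an unadjusted p under 0.05 (3%) and 0 called.

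The genes described first are the 12 per direction with the smallest unadjusted p among those with a mean value of at least 50 and non-overlapping hypoxia groups, given as values and not as calls. Meg3 and Glipr1 had an adjusted p of 0.29 (limma) and the other 22 one of 0.641. Selection by the hypoxia values fixes their direction there. The normoxia libraries entered the choice through the shared estimate of the spread, and replicates of equal number deviated together across oxygen levels (r 0.565 in WT, 0.229 in KO, across features), so the normoxia values beside them are not independent of it.

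The higher genes were led by Meg3, a long noncoding RNA expressed from the maternal copy of the imprinted Dlk1-Dio3 region (chromosome 12, 109541001 to 109571726, plus strand). It was at 34 and 37 in WT hypoxia and 150 and 180 in KO hypoxia, a difference of 2.18 ± 0.32 (SE, n = 2 against 2), or 4.53-fold. Both KO libraries were above both WT libraries, and the same held in normoxia, where Meg3 was at 24 and 39 in WT and 80 and 106 in KO. Unc13c, a synaptic vesicle priming protein, was at 31 and 22 in WT hypoxia and 105 and 109 in KO hypoxia (1.99 ± 0.40). Runx3, a Runt family transcription factor, was at 35 and 22 against 105 and 81 (1.70 ± 0.34). In normoxia Runx3 was at 56 and 40 in WT and 57 and 55 in KO, so that the groups differed little there.

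Surface and signalling molecules made up much of the rest. Flt4, the VEGF receptor of lymphatic endothelium, was at 92 and 55 in WT hypoxia and 206 and 208 in KO hypoxia (1.53 ± 0.31). Cd34, a sialomucin found on progenitor cells and some fibroblasts, was at 619 and 588 against 1247 and 1274 (1.06 ± 0.24). Cspg4, the NG2 proteoglycan of pericytes and mesenchymal progenitors, was at 989 and 771 against 1724 and 1773 (1.00 ± 0.23). Of the 5 tested pericyte and muscle markers, Cspg4 among them, 2 were higher and 3 lower in KO hypoxia (median -0.38). In these bulk libraries more cells of a type and more RNA per cell cannot be told apart. Vstm5, a membrane immunoglobulin-domain protein, was at 51 and 35 against 115 and 112 (1.40 ± 0.30), and Lphn1, the adhesion receptor latrophilin 1, at 165 and 145 against 324 and 328 (1.07 ± 0.24). Ptgs1, the cyclooxygenase COX-1 that makes prostaglandin H2, was at 608 and 487 in WT hypoxia and 983 and 1090 in KO hypoxia (0.93 ± 0.21). In each of these 6 genes both KO libraries were above both WT libraries.

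The remaining higher genes were Map1a, a microtubule-associated protein (66 and 68 in WT hypoxia, 166 and 158 in KO hypoxia, 1.26 ± 0.24), and Mn1, a transcriptional coregulator (248 and 233, 525 and 529, 1.13 ± 0.23). Ift172, a subunit of the ciliary transport complex, was at 85 and 69 against 170 and 152 (1.06 ± 0.25). The 12 higher genes had long transcripts, with a median longest transcript of 6557 bases against 3424 over all tested features.

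Among the lower genes Glipr1, a secreted CAP-domain protein known as a p53-regulated gene (chromosome 10, 111985448 to 112002631, minus strand), stood first. It was at 229 and 369 in WT hypoxia and 68 and 58 in KO hypoxia, a difference of -2.19 ± 0.31, or 4.57-fold lower. In normoxia Glipr1 was at 205 and 285 in WT and 63 and 83 in KO, and the genotypes again did not overlap. Mmp23, a membrane-anchored matrix metalloproteinase, was at 72 and 144 in WT hypoxia and 21 and 17 in KO hypoxia (-2.37 ± 0.45). Rgs4, which shortens G-protein signals, was at 58 and 218 against 28 and 22 (-2.14 ± 0.58). For Rgs4 and Mmp23 WT hypoxia replicate 2 was well above replicate 1, and Rgs4 in normoxia (77 and 91 in WT, 109 and 45 in KO) overlapped between the genotypes.

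Enzymes and redox proteins followed. Cbr1, a carbonyl reductase, was at 76 and 138 in WT hypoxia and 37 and 38 in KO hypoxia (-1.43 ± 0.34). Cyba, the p22phox subunit of NADPH oxidases, was at 262 and 461 against 138 and 131 (-1.36 ± 0.34), and Nme4, a mitochondrial nucleoside diphosphate kinase, at 166 and 236 against 93 and 101 (-1.02 ± 0.28). Both KO libraries were below both WT libraries in these 3 genes. Rassf7, a Ras-association domain protein whose gene is next to Mir210, was at 313 and 337 in WT hypoxia and 180 and 144 in KO hypoxia (-1.01 ± 0.24). Bok, a BCL2 family member, was at 840 and 715 against 357 and 440 (-0.97 ± 0.23).

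Pfdn4, a prefoldin chaperone subunit, was at 946 and 1098 in WT hypoxia and 472 and 496 in KO hypoxia (-1.07 ± 0.27). It was the only one of the 12 lower genes whose sign turned in normoxia, at 0.16. Anapc10, of the anaphase-promoting complex, was at 147 and 191 against 78 and 86 (-1.02 ± 0.28), and Abracl at 1434 and 1687 against 849 and 766 (-0.95 ± 0.23). The uncharacterised 1810022K09Rik was at 162 and 188 against 73 and 92 (-1.08 ± 0.27). The 12 lower genes had short transcripts, with a median longest transcript of 1308 bases.

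**Figure D2:**
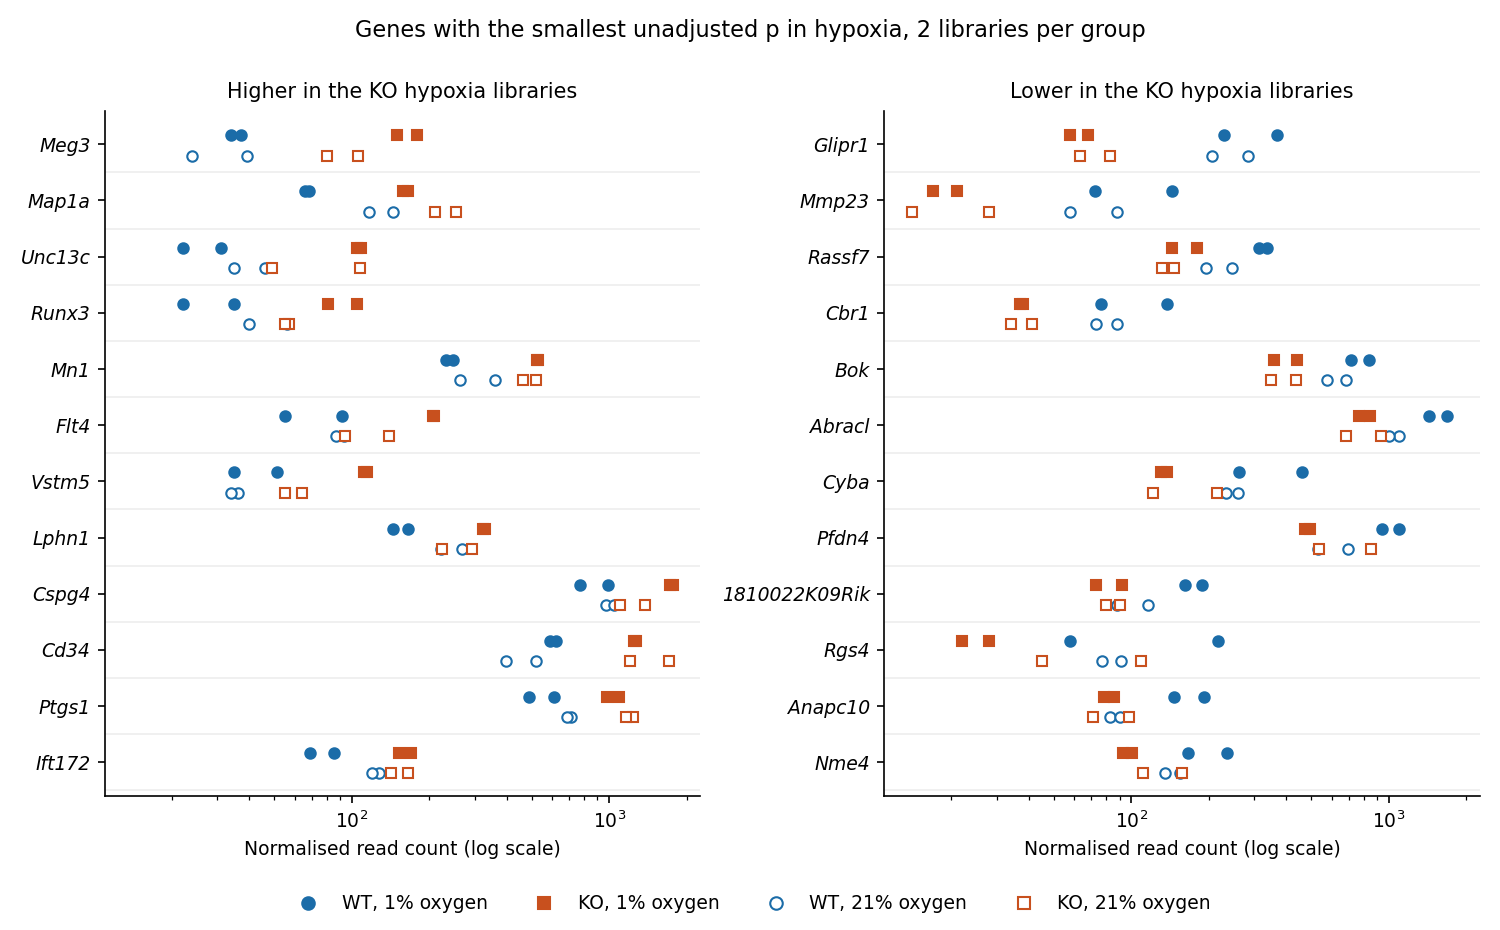
Normalised read counts (log x axis) of the 12 genes per direction with the smallest unadjusted p in hypoxia; each point is 1 library, circles WT and squares KO, filled 1% oxygen and open 21% oxygen. The filled groups do not overlap by the rule of selection; the open symbols of Meg3, Cd34, Glipr1 and Mmp23 are also apart, and those of Rgs4 and Pfdn4 overlap.

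The normoxia differences, which the choice of these genes used only for the spread, had the same sign for 12 of the 12 higher and 11 of the 12 lower genes. Genotypes did not overlap in normoxia for 10 of the higher and 7 of the lower genes, where 10% of all tested features were apart with KO higher and 11% with KO lower (21% together). All 4 KO libraries lay on one side of all 4 WT libraries for 10 and 7 of them, beside 1.95% and 1.7% of all features. Selection had already set these genes apart in hypoxia, so those shares are not a like comparison. Over all 12107 features the differences at the 2 oxygen levels shared their sign in 47.6% (Pearson r 0.165, Spearman rho -0.001 across features, which are not independent replicates and share library-wide trends of length). Of the 539 features higher in KO hypoxia at an unadjusted p under 0.05, 359 (66.6%) were higher in normoxia too, and of the 371 lower ones 206 (55.5%) were lower. With the length trend removed r over all features was 0.257 and rho 0.125.

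Averaged over both oxygen levels, a comparison that shares the hypoxia libraries with the one above, limma called 3 of 12107 genes (0.0248%). The fit took normoxia and hypoxia libraries of a genotype as independent, although same-numbered ones deviated together (r 0.565 in WT, 0.229 in KO). The SE and p-values of this pooled comparison may therefore be too small. Meg3 (1.87 ± 0.23) and Cd34 (1.36 ± 0.17) were called higher in KO (0.0165% of features) and Glipr1 (-1.96 ± 0.22) lower (0.00826%), each with an adjusted p of 0.0436 (limma). In Cd34 the normoxia values were 519 and 399 in WT and 1704 and 1207 in KO. Each call rested on the full set of libraries, since 0 genes were called without any 1 of the 8. The test of whether the genotype difference itself changed with oxygen called 0 genes (smallest adjusted p 0.857, limma), with 380 features (3.14%) at an unadjusted p under 0.05. For the 24 genes above, then, a difference between the oxygen levels, such as that of Runx3 (1.70 in hypoxia, 0.24 in normoxia), was not past the test.

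**Figure D3:**
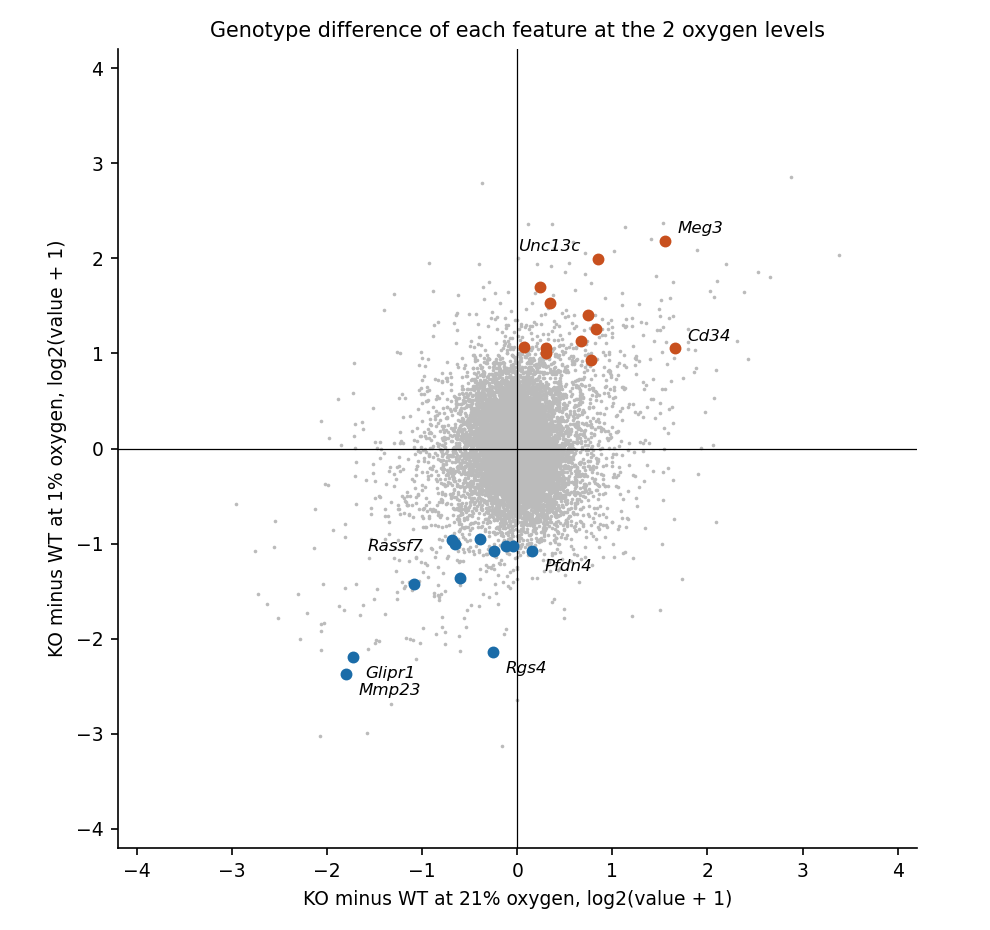
KO minus WT difference of each tested feature in normoxia (x axis) and hypoxia (y axis), both on the log2(value + 1) scale; the 12 higher genes are in orange and the 12 lower in blue, all other features grey. All orange points lie at positive x and all blue points but Pfdn4 at negative x, while the grey cloud shows little relation (r 0.165).

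The reported targets of miR-210 did not lie to one side in KO hypoxia. Of 37 listed, 31 were tested, 0 were called, and 17 were higher and 14 lower; groups were apart with KO higher in 9 (29%, beside 26.2% of all features) and with KO lower in 9 (29%, beside 24.5%). Their median difference was 0.13, beside -0.01 over all features, and -0.03 with the length trend removed. It was 0.01 without WT hypoxia replicate 2 and -0.08 without WT hypoxia replicate 1. In normoxia it was -0.08.

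Targets of energy metabolism come first. Iscu, the scaffold on which iron-sulfur clusters are built, was at 90 and 97 in WT hypoxia and 89 and 71 in KO hypoxia (-0.23 ± 0.28). The groups were apart by a single count, within the spread of either. Ndufa4, a subunit now placed in cytochrome c oxidase, whose seed match is printed above, was at 1332 and 2183 against 1283 and 1079 (-0.53 ± 0.31). Sdhd, a membrane anchor of complex II, was at 1578 and 1414 against 1206 and 1375 (-0.21 ± 0.26). Cox10, which acts in the making of haem A for cytochrome c oxidase, was at 211 and 106 against 140 and 147 (-0.06 ± 0.31). Gpd1l, a glycerol-3-phosphate dehydrogenase whose loss is known to steady HIF-1α, was at 184 and 149 against 201 and 188 (0.23 ± 0.23). Bnip3, a mitophagy receptor that is also a HIF target, was at 409 and 524 against 370 and 302 (-0.47 ± 0.26).

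Some transcriptional regulators among the targets were higher, while the transcription factor Foxp3, given below, was lower. Mnt, a MAX-binding repressor that opposes MYC, was the only reported target at an unadjusted p under 0.05, at 30 and 39 in WT hypoxia and 64 and 57 in KO hypoxia (0.80 ± 0.31, adjusted p = 0.641 by limma). In normoxia Mnt was at 36 and 40 in WT and 41 and 40 in KO, and the difference of the differences, 0.71, did not pass the test (adjusted p = 0.857). E2f3, an S phase transcription factor, was at 285 and 218 against 339 and 347 (0.46 ± 0.27), Sin3a, a corepressor scaffold, at 402 and 384 against 528 and 571 (0.48 ± 0.29), and Elk3, an ETS factor, at 839 and 705 against 1038 and 951 (0.37 ± 0.26). All 4 had KO libraries above WT libraries in hypoxia, as had 26.2% of all features. With the length trend removed the differences were 0.71 for Mnt, 0.34 for E2f3, 0.36 for Sin3a and 0.30 for Elk3. The normoxia differences of these 4 genes ran from -0.29 for E2f3 to 0.09 for Mnt.

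Receptors, ligands and other targets were divided. Ncam1, the neural cell adhesion molecule, was at 1166 and 1067 in WT hypoxia and 1895 and 2074 in KO hypoxia (0.83 ± 0.45), and in normoxia its KO libraries were at 497 and 1696. Fgfrl1, a decoy FGF receptor, was at 340 and 559 against 314 and 299 (-0.51 ± 0.35), and P4hb, the protein disulfide isomerase subunit of prolyl 4-hydroxylase, at 13722 and 19661 against 10635 and 11838 (-0.55 ± 0.32). Acvr1b, an activin receptor, was at 159 and 126 against 172 and 174 (0.29 ± 0.26) and Bdnf, a neurotrophin, at 824 and 865 against 991 and 1033 (0.26 ± 0.25). Targets whose groups were apart also included Rad52, for recombinational repair (-0.37 ± 0.24), Ptpn1, a tyrosine phosphatase (-0.23 ± 0.27), and Foxp3 (-0.54 ± 0.61, at 12 or below throughout these libraries). For Ptpn2, Stmn1, Tnpo1, Tfrc, Socs1, Uba1, Casp8ap2, Dimt1, Vmp1, Cpeb2 and Smchd1 the genotypes overlapped in hypoxia.

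A wider view came from the seed matches. Of the 11459 tested genes with an annotated 3′ untranslated region, 529 held at least 1 of the letters ACGCACA or CGCACAA (which overlap in the longer ACGCACAA): 426 (3.72%) held ACGCACA, 161 (1.41%) CGCACAA and 54 (0.47%) ACGCACAA. In KO hypoxia 339 of the 529 were higher and 190 lower, with a median of 0.15 beside -0.01 in the 10930 genes without a match, and groups were apart with KO higher in 39.9% of them, beside 26.3%. Genes with a match are longer, with a median longest transcript of 4869 bases beside 3436. With the length trend removed their median was 0.05, beside -0.02, and 28.9% were apart with KO higher, beside 22.4%. Genes with the seed match of miR-210-5p, whose median transcript is 4599 bases, were at 0.12 before and 0.01 after that step (n = 1826). In normoxia genes with a miR-210-3p match were at -0.09.

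Genes of the low-oxygen response itself were the next group, since HIF induces both miR-210 and glycolysis. Of 44 tested HIF-responsive genes 27 were lower and 17 higher in KO hypoxia, 0 were called, and groups were apart with KO lower in 17 (38.6%, beside 24.5% of all features). Their median was -0.17 (-0.21 with the length trend removed), and from -0.24 (without WT hypoxia replicate 1) to -0.08 (without WT hypoxia replicate 2) over the alternative settings. Angptl4, a secreted inhibitor of lipoprotein lipase, was at 348 and 564 in WT hypoxia and 217 and 242 in KO hypoxia (-0.95 ± 0.28). Hilpda, a lipid droplet protein that inhibits triglyceride breakdown, was at 467 and 509 against 316 and 286 (-0.70 ± 0.27). Fam162a, a mitochondrial protein, was at 5635 and 14016 against 4811 and 4356 (-0.96 ± 0.38), where 1 WT library carried most of the difference. Gbe1, the glycogen branching enzyme, was at 359 and 419 against 241 and 263 (-0.62 ± 0.28). In all 4 genes both KO libraries lay below both WT libraries, and in normoxia Angptl4 (-0.55) and Gbe1 (-0.51) were lower in KO while Hilpda and Fam162a (0.10 each) were not.

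Glycolytic genes had a median of -0.28 in hypoxia (24 tested, 16 lower, 0 called), of 0.06 in normoxia, and of -0.24 in hypoxia with the length trend removed. Ldha, which turns pyruvate into lactate, was at 13047 and 13539 in WT hypoxia and 8609 and 7939 in KO hypoxia (-0.68 ± 0.37). Tpi1, triosephosphate isomerase, was at 10595 and 13741 against 7590 and 7455 (-0.68 ± 0.34). Both were apart with KO lower. The lactate exporter Slc16a3 was higher, at 333 and 443 in WT hypoxia and 634 and 606 in KO hypoxia (0.69 ± 0.41), with values of 25 or less in all 4 normoxia libraries. None of the 24 glycolytic genes had an unadjusted p under 0.05.

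Iron-sulfur cluster assembly, the pathway of Iscu, was lower in KO hypoxia for 28 of 34 tested genes, with groups apart and KO lower in 17 (50%) and a median of -0.20, or -0.10 with the length trend removed. After that removal 14 were apart with KO lower (41.2%). The share of all features apart with KO lower was 24.5% before it and 23.8% after it. Of the 34 genes 0 were called and 3 were lower at an unadjusted p under 0.05, where 371 of all 12107 features (3.06%) were. Fdx1, a mitochondrial ferredoxin, was at 246 and 267 in WT hypoxia and 187 and 154 in KO hypoxia (-0.59 ± 0.23). Bola1 was at 110 and 162 against 87 and 72 (-0.75 ± 0.29), and Gfer, a sulfhydryl oxidase of the intermembrane space, at 572 and 582 against 415 and 382 (-0.53 ± 0.23). Nfs1, the cysteine desulfurase that supplies the sulfur, was at 325 and 298 against 213 and 237 (-0.47 ± 0.22). In normoxia the list's median was -0.01.

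Subunits of the respiratory chain were lower in 74 of 76 and apart in 50 (65.8%, beside 24.5% of all features). Their median was -0.39 and 0 were called. Of the 76, 10 were lower at an unadjusted p under 0.05, where 371 of all 12107 features (3.06%) were. Transcripts of these subunits are short (median 1186 bases). With the length trend removed 57 subunits were lower, 30 were apart with KO lower (39.5%, beside 23.8%) and the median was -0.22. In normoxia the median was 0.17. Uqcrb, a complex III subunit, was at 119 and 189 in WT hypoxia and 69 and 79 in KO hypoxia (-1.01 ± 0.36). Cox7b, of cytochrome c oxidase, was at 914 and 1424 against 613 and 566 (-0.95 ± 0.32), and Ndufb4, of complex I, at 41 and 48 against 21 and 16 (-1.23 ± 0.38). All 3 were apart, and in normoxia their differences were 0.02, 0.15 and -0.25.

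The genes around Mir210 on distal chromosome 7 were mostly lower in KO hypoxia. Of 27 tested neighbours 22 were lower, 17 were apart with KO lower (63%, beside 24.5% of all features) and 0 were called. Of the 27, 8 were lower at an unadjusted p under 0.05, where 371 of all 12107 features (3.06%) were. The median of the neighbours was -0.41, -0.30 with the length trend removed, from -0.46 to -0.30 over the alternative settings, and -0.01 in normoxia. Rassf7, described above, lies at chr7:141215860-141218658 on the plus strand, and was also lower in normoxia (246 and 195 in WT, 132 and 146 in KO, -0.65). Hras1, a Ras GTPase gene on the same side of Mir210 as Rassf7, was at 1241 and 1085 in WT hypoxia and 763 and 722 in KO hypoxia (-0.64 ± 0.26). Phrf1, on the other side of Mir210, overlapped between the genotypes at 680 and 421 against 604 and 595 (0.16 ± 0.26).

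Further out, Chid1, a chitinase-domain protein, was at 657 and 764 in WT hypoxia and 415 and 444 in KO hypoxia (-0.72 ± 0.22). Taldo1, the transaldolase of the pentose phosphate pathway, was at 1811 and 1654 against 1149 and 1040 (-0.66 ± 0.22), and Bet1l, a Golgi SNARE, at 339 and 499 against 199 and 239 (-0.91 ± 0.33). All 3 were apart. In windows drawn after these values were seen, 18 of 31 tested features within 500 kb were apart with KO lower (58.1%), 33 of 53 within 2000 kb (62.3%), 40 of 81 within 5000 kb (49.4%) and 277 of 871 on the whole of chromosome 7 (31.8%). The region is rich in G and C, with a median of 54.4% in the transcripts within 500 kb beside 52.4% over chromosome 7. Across all features the 10% that span the region's median (53.3% to 55.4%) had a median difference of -0.04 in hypoxia. The 10% richest in G and C (57.7% to 71.3%) were at -0.09. Whether the neighbours' values come from G and C content or position was not tested.

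**Figure D4:**
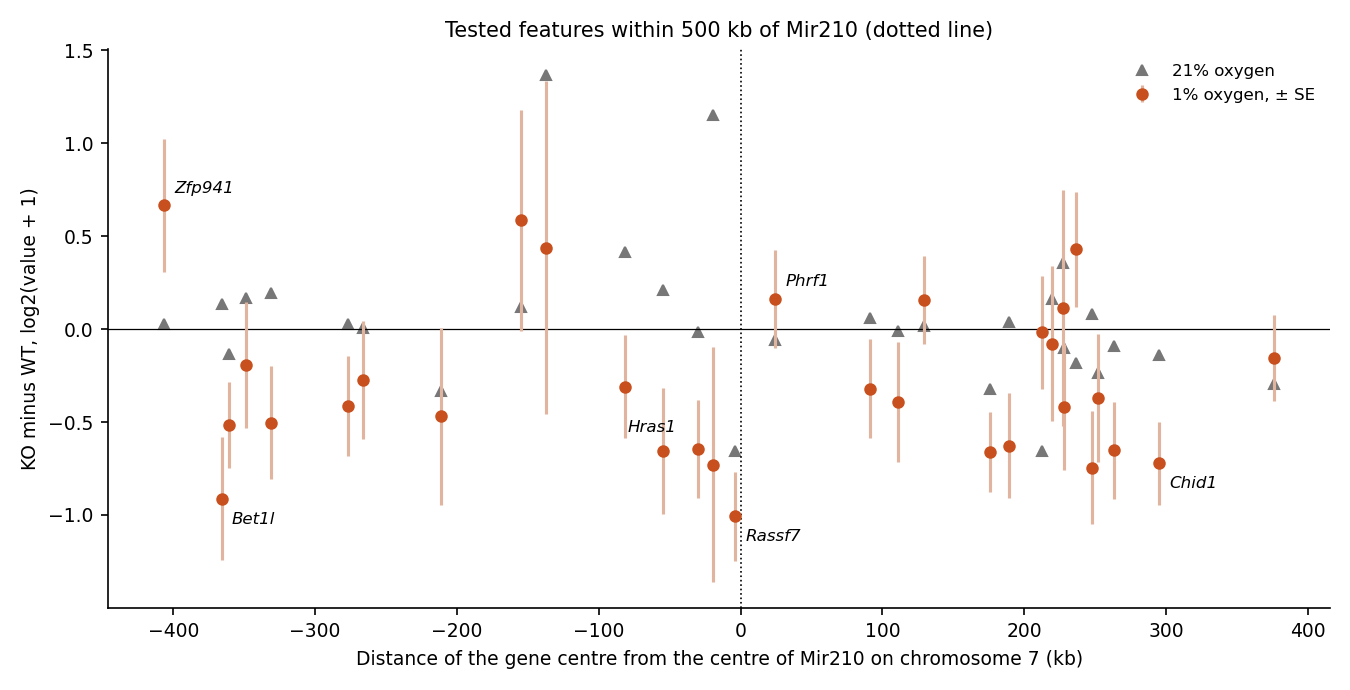
KO minus WT difference (y axis, log2 scale) of the 31 tested features within 500 kb of Mir210 against distance (x axis, kb); orange points are hypoxia with SE bars and grey triangles normoxia. Most orange points lie below 0 on both sides of the dotted line, Rassf7 lowest at -1.01, and the triangles scatter around 0.

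Fibroblast lineage and surface genes leaned higher in KO hypoxia. Of 35 tested, 26 were higher, 17 were apart with KO higher (48.6%, beside 26.2%), 5 were higher at an unadjusted p under 0.05 and 0 were called, with a median of 0.29 (0.27 with the length trend removed, 0.18 in normoxia). The hypoxia median ran from 0.145 (without WT hypoxia replicate 1) to 0.441 (without WT hypoxia replicate 2) over the alternative settings. Beside Cd34 and Cspg4, the imprinted ligand Dlk1, an inhibitor of adipocyte formation, was at 17 and 24 in WT hypoxia and 97 and 96 in KO hypoxia (2.20 ± 0.43). Its normoxia values, 10 and 23 in WT and 49 and 36 in KO, were also apart. Cdh11, the cadherin of mesenchymal cells, was at 494 and 591 against 1142 and 1146 (1.08 ± 0.36), with 0.19 in normoxia.

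Dlk1 lies on chromosome 12 beside Meg3, and of the imprinted genes 17 of 25 were higher, with 13 apart and KO higher (52%, beside 26.2% of all features), 0 called and a median of 0.26. That median was 0.34 with the length trend removed and -0.03 in normoxia. Rian and Mirg, noncoding RNAs of the same region named after their values were seen, were at 258 and 619 in WT hypoxia against 702 and 733 in KO hypoxia (0.84 ± 0.44) and at 21 and 29 against 44 and 40 (0.74 ± 0.44). The 4 genes named from the region were apart in hypoxia with KO higher, as were 26.2% of all features. These 4 were chosen by smallest p or after their values were seen. Slc38a4, an amino acid transporter, was at 9 and 16 against 26 and 29 (1.13 ± 0.44). Of the 25, 8 were lower and 3 were apart with KO lower (12%, beside 24.5% of all features). Among these 3 was Dcn, the proteoglycan decorin. Dcn was at 52 and 93 in WT hypoxia and 25 and 16 in KO hypoxia (-1.75 ± 0.44), and at -1.66 in normoxia.

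Of 52 collagens and matrix proteins 32 were higher and 20 lower (median 0.04, -0.06 with the length trend removed, 0 called), but the median was 0.30 without WT hypoxia replicate 2 and -0.10 without WT hypoxia replicate 1. Hspg2, the basement membrane proteoglycan perlecan, was at 3095 and 2434 in WT hypoxia and 5433 and 4299 in KO hypoxia (0.82 ± 0.34). Lamc1, the laminin gamma 1 chain, was at 784 and 447 against 994 and 1032 (0.77 ± 0.32), and Ltbp2, a microfibril protein, at 1854 and 2112 against 3612 and 3567 (0.86 ± 0.36). With the length trend removed the differences were 0.44 for Hspg2, whose groups then overlapped, 0.55 for Lamc1 and 0.67 for Ltbp2. In normoxia Hspg2 (-0.05), Lamc1 (-0.19) and Ltbp2 (-0.02) lay near 0.

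Collagen-modifying enzymes had a median of -0.13, or -0.12 with the length trend removed (23 tested, 14 lower, 11 apart with KO lower, 47.8% beside 24.5%, 0 called). Tgm2, the crosslinking transglutaminase, was at 1993 and 1330 in WT hypoxia and 1015 and 1079 in KO hypoxia (-0.64 ± 0.26), with a larger value of -1.39 in normoxia. Serpinh1, the collagen chaperone HSP47, was at 14634 and 15233 against 10294 and 10488 (-0.52 ± 0.26). Timp2, a metalloproteinase inhibitor, belongs to another list, the matrix proteases and their inhibitors. It was at 4694 and 4554 against 7092 and 7287 (0.64 ± 0.24). These 3 genes were apart in hypoxia, whichever way they pointed.

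In the contractile and TGF-beta list (29 tested, 0 called, median -0.12, -0.11 with the length trend removed) 13 genes were higher and 16 lower. Tgfbr2, a TGF-beta receptor, was at 688 and 669 in WT hypoxia and 1052 and 1116 in KO hypoxia (0.67 ± 0.23), Tgfbr3, the coreceptor betaglycan, at 266 and 312 against 482 and 518 (0.79 ± 0.31), and Smad3, the signal transducer, at 577 and 397 against 749 and 781 (0.68 ± 0.24). The smooth muscle actin Acta2 was at 53607 and 50327 against 37246 and 30992 (-0.61 ± 0.31) and calponin, Cnn1, at 4950 and 4678 against 3387 and 3034 (-0.59 ± 0.27). In normoxia Acta2 was at -0.61 and Cnn1 at -0.63.

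Interferon-stimulated genes were lower in 26 of 31 with a median of -0.47, but only 7 were apart with KO lower (22.6%, beside 24.5% of all features). With the length trend removed the median was -0.49. Without WT hypoxia replicate 2 it was 0.04, and without WT hypoxia replicate 1 it was -1.18. Their summed level was 5516 and 12485 in WT hypoxia and 5723 and 5736 in KO hypoxia. B2m, the light chain of MHC class I, was at 2161 and 7195 against 2325 and 2174 (-0.81 ± 0.49), so that 1 WT library was high and the other 3 were alike. Ifi35 was at 146 and 200 against 116 and 85 (-0.78 ± 0.31).

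The same library was high in several markers of other cells, and so was WT normoxia replicate 2. In normoxia WT replicates 1 and 2 were at 5296 and 9766 for the interferon sum, 263 and 567 for the adipocyte sum and 4 and 46 for Fabp4. The 3 tested adipocyte markers summed to 188 and 511 in WT hypoxia and 198 and 192 in KO hypoxia, with Fabp4 at 4 and 94 against 10 and 4. The summed Schwann cell and melanocyte markers (3 tested) were at 67 and 138 against 77 and 76. Leukocyte markers (3 tested) summed to 95 and 75 against 96 and 63, with Ptprc at 1 and 3 against 6 and 1, and keratinocyte markers (3 tested) to 46 and 38 against 49 and 52, with Krt5 at 1 throughout. Of the keratinocyte and epithelial list Cdh1, E-cadherin, was at 14 and 8 in WT hypoxia and 21 and 38 in KO hypoxia (1.33 ± 0.51), and KO was above WT in normoxia too (13 and 8, 21 and 34). The endothelial marker Pecam1 was at 1 in all 4 hypoxia libraries, while 2 endothelial receptors passed the filter. Kdr was at 6 and 14 against 15 and 18, with KO higher, and Tek at 4 and 27 against 3 and 4, where the groups overlapped. The fibroblast genes Fap (9 and 40 in WT hypoxia, 4 and 4 in KO hypoxia, -2.02 ± 0.85) and Lum, lumican (6 and 36, 3 and 4, -1.85 ± 0.99), were high in that library as well, and in WT normoxia replicate 2 (38 against 7 in replicate 1 for Fap, 27 against 4 for Lum). The part of these markers in the genotype differences was not tested.

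Inflammatory genes of the NF-kB list had 20 of 30 higher, 12 apart with KO higher (40%, beside 26.2%) and 0 called. Their median was 0.13 (0.23 with the length trend removed). Of the 30, 5 were higher at an unadjusted p under 0.05, where 539 of all 12107 features (4.45%) were. Beside Ptgs1, Cxcl5, a neutrophil chemokine, was at 14 and 12 in WT hypoxia and 39 and 25 in KO hypoxia (1.21 ± 0.41). Cx3cl1, the membrane chemokine fractalkine, was at 300 and 297 against 511 and 417 (0.63 ± 0.22), and Tnfaip2 at 547 and 471 against 759 and 729 (0.55 ± 0.21). The KO libraries were above the WT libraries in all 3. Klf4, an immediate-early transcription factor, was at 115 and 84 in WT hypoxia and 258 and 265 in KO hypoxia (1.40 ± 0.36), and in normoxia at 101 and 108 against 82 and 187. The median of the 25 immediate-early genes was -0.11, with 11 higher and 14 lower.

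Of the cell cycle lists 0 members were called. Mitotic genes were higher in 37 of 45 (median 0.19, 0.16 with the length trend removed), but 14 were apart with KO higher, a share of 31.1% near the 26.2% of all features. S phase genes were lower in 37 of 48 (median -0.139, and -0.145 with the length trend removed), with 20 apart and KO lower (41.7%, beside 24.5%). Without WT hypoxia replicate 2 the mitotic median was 0.01. Foxm1, the transcription factor of the mitotic programme, was at 574 and 315 in WT hypoxia and 781 and 756 in KO hypoxia (0.85 ± 0.32). Ccne2, cyclin E2, was at 1555 and 3756 against 1362 and 1343 (-0.84 ± 0.36). Chaf1b, of the histone chaperone CAF-1, was at 610 and 802 against 525 and 463 (-0.50 ± 0.23).

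Replication-dependent histones were lower in 61 of 63, with 38 apart (60.3%, beside 24.5% of all features), a median of -0.65 and 0 called, and their copies are near identical, so single values are uncertain. Their median longest transcript is 555 bases, the median with the length trend removed was -0.35, and in normoxia it was 0.54. Hist1h3f was at 311 and 381 in WT hypoxia and 194 and 125 in KO hypoxia (-1.14 ± 0.37), and at 137 and 170 against 369 and 170 in normoxia. Cytosolic ribosomal protein genes were lower in 66 of 71 (median -0.42, -0.23 with the length trend removed, 0.24 in normoxia), for example Rps25 at 335 and 360 against 216 and 172 (-0.85 ± 0.27). Mitochondrial ribosomal protein genes were lower in 62 of 74 (median -0.27, -0.15 with the length trend removed, 0.18 in normoxia), with Mrps28 at 393 and 441 against 252 and 220 (-0.82 ± 0.23). Of the members of these 3 lists 0 were called in hypoxia.

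The microRNA machinery was higher in 11 of 14 genes, 8 of them apart with KO higher (57.1%, beside 26.2% of all features), with a median of 0.47. These are long transcripts (median 6882 bases), and with the length trend removed 9 were higher, 42.9% were apart with KO higher (beside 22.6%) and the median was 0.17. In normoxia the median was -0.13. Eif2c2, which encodes Argonaute 2, was at 478 and 292 in WT hypoxia and 699 and 743 in KO hypoxia (0.95 ± 0.37). Tnrc6c, a GW182 partner of Argonaute, was at 203 and 115 against 248 and 313 (0.86 ± 0.34), and Dicer1, which cuts precursors to mature microRNAs, at 503 and 406 against 706 and 770 (0.70 ± 0.34). In all 3 genes the KO libraries were above the WT libraries, and WT hypoxia replicate 2 was the lowest.

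Of the small RNAs themselves, 45 microRNA gene features were tested, with 31 lower and a median of -0.12, and 107 small nucleolar and Cajal body RNAs, with 73 lower and a median of -0.12. Only 5 of the latter were apart in either direction (4.7%, beside 50.8% of all features). No direction could be given for either list. With the length trend removed, a fit made mostly on far longer transcripts, 41 of the 45 microRNA features (median 0.72) and 105 of the 107 small nucleolar and Cajal body RNAs (0.71) were higher. The latter median was -1.21 without KO hypoxia replicate 1 and 0.91 without KO hypoxia replicate 2. Snord1b, which was apart but differed strongly between the KO libraries, was at 122 and 79 in WT hypoxia and 424 and 140 in KO hypoxia (1.30 ± 0.61).

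**Figure D5:**
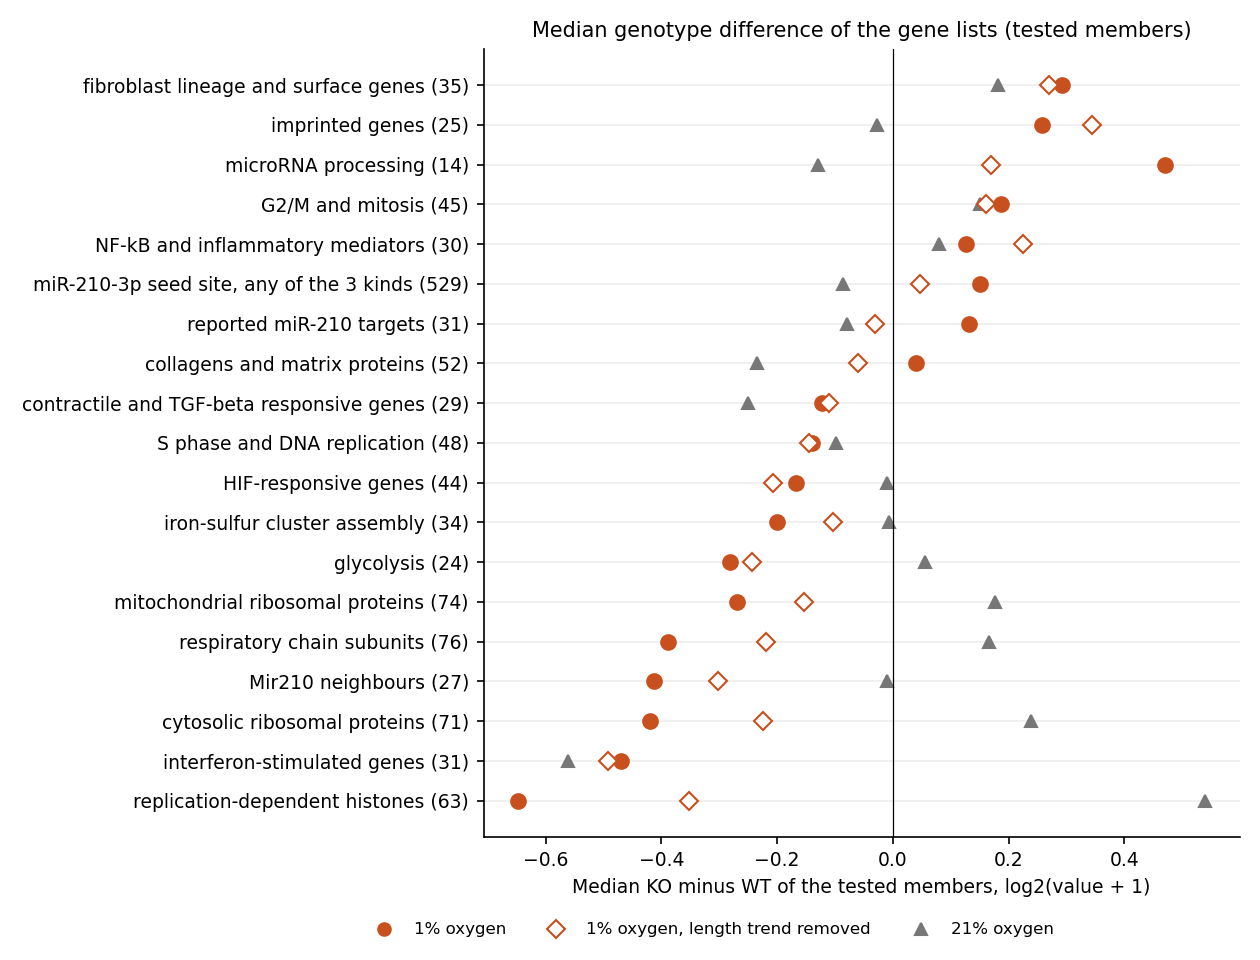
Median KO minus WT difference of the tested members (x axis, log2 scale; members in brackets) for 19 gene lists, with filled circles for hypoxia, open diamonds for hypoxia with each library's length trend removed, and triangles for normoxia. Fibroblast lineage genes are at 0.29, 0.27 and 0.18 and histones at -0.65, -0.35 and 0.54; histones, ribosomal proteins and respiratory chain subunits lie left of 0 in hypoxia and right of it in normoxia.

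The remaining lists had 0 members called each, and their medians were set beside -0.01 over all features: p53 targets (30 tested, -0.03), cholesterol biosynthesis (23, -0.03), ATF4 and unfolded-protein response genes (45, 0.00), matrix proteases and their inhibitors (28, -0.08), NRF2 and antioxidant genes (39, -0.17), the IGF axis (17, 0.18) and Hox genes (5, 0.12). Of the NRF2 list 26 of 39 were lower and 33.3% apart with KO lower (beside 24.5%), with a median of -0.03 once the length trend was removed. In the IGF axis 13 of 17 were higher and 29.4% apart with KO higher (beside 26.2%). Among the members of these lists Zmat3, an RNA-binding p53 target, was at 356 and 198 in WT hypoxia and 500 and 481 in KO hypoxia (0.88 ± 0.28). Igf1r, the IGF-1 receptor, was at 1012 and 802 against 1551 and 1573 (0.79 ± 0.33), and Tkt, the transketolase that works beside Taldo1, at 3362 and 3739 against 1880 and 1865 (-0.92 ± 0.40). In Zmat3, Igf1r and Tkt the groups were apart.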

How the data were processed

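The table holds 1 score per gene and library, the authors' deposited normalised read counts, in whole numbers with a lowest value of 1. Per the labels' protocols, RNA came from a miRNeasy extraction and libraries from a small RNA set for SOLiD. Nothing used here names the aligner, counting, strand, build or normalisation, so overlapping or near-identical genes may share reads. Rounding hides the reads, so no count model was run. The members and lists were chosen with earlier results of these data known. limma (version 3.58.1, R 4.3.3) with a mean trend was fitted to log2(value + 1) of all 8 libraries in 4 groups, and p-values are two-sided, adjusted by Benjamini and Hochberg (threshold 0.05). Named genes are Mir210, the 12 per direction described, each tested reported target, up to 4 members per list by smallest p, and pooled calls; Col1a2, Vim, Hras1, Phrf1, Rian and Mirg were chosen after their values were seen. Of the tested targets 2 are not reported by name here. Names of 26 features had been turned into dates, and 0 sample columns were unused. Lengths came from GENCODE M21 (GRCm38) for 98.8% of tested features. The test was checked on simulated data. Alternatives were the pseudocount, filter, scaling, a replicate term, left-out libraries, the hypoxia libraries alone and removal of the length trend. Same-numbered WT and KO hypoxia libraries did not deviate together (r 0.023), whereas same-numbered normoxia and hypoxia libraries of a genotype did (r 0.565 in WT, 0.229 in KO).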

Additional observations from a re-analysis of the deposited data

How the results depend on the processing

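Hypoxia, normoxia and interaction comparisons called 0 genes under every alternative run. The pooled comparison called 0 genes in place of 3 with no filter on low values, with a minimum of 50, and without the pair of KO normoxia replicate 1 and WT hypoxia replicate 2, and from 0 to 0 without each library in turn. Features at an unadjusted p under 0.05 in hypoxia numbered 1984 with the hypoxia libraries alone and from 288 (without WT hypoxia replicate 2) to 1966 (without KO normoxia replicate 2). The replicate block gave 1123 such features, 0 hypoxia calls and 4 pooled calls. It joins same-numbered libraries of both genotypes, and what an equal number marks is not stated. Same-numbered normoxia and hypoxia libraries deviated together within a genotype (r 0.565 in WT, 0.229 in KO). Between the WT and KO hypoxia pairs r was 0.023. Of the genes named, 0 of 24 leading ones changed sign. For left-out libraries this was fixed by their selection, since their hypoxia groups do not overlap. With the length trend removed signs turned for Casp8ap2 (-0.059), Cpeb2 (-0.068), Sdhd (0.016) and Smchd1 (-0.117). Leaving out WT hypoxia replicate 2, alone or with KO normoxia replicate 1, turned B2m (0.057), Fabp4 (0.569), Phrf1 (-0.182), Ptpn2 (0.101), Tfrc (-0.162), Uba1 (-0.135) and Vmp1 (0.137). Over the left-out libraries differences ran from -1.678 to 0.057 for B2m, -0.117 to 0.381 for Casp8ap2, -0.553 to 0.433 for Cox10, -0.084 to 0.349 for Cpeb2 and -0.248 to 0.519 for Dimt1. They ran from -3.679 to 0.569 for Fabp4, -0.182 to 0.509 for Phrf1, -0.737 to 0.101 for Ptpn2, -0.037 to 1.548 for Stmn1, -0.162 to 0.789 for Tfrc, -0.135 to 0.400 for Uba1 and -0.289 to 0.137 for Vmp1. Their cause was not tested. Depth and 2 libraries a group limit what can be called.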
